A study of Homo sapiens with 6 samples.

Results

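Cytosolic ribosomal proteins are the protein components of the ribosomes that translate nuclear-encoded mRNAs, and each is encoded by its own gene. The genes were taken by symbol (RPL or RPS followed by a number, with the suffixes A, X, L, Y1 or Y2 allowed, together with RPSA, RPLP0, RPLP1 and RPLP2), without the RPS6K kinases, and a gene was kept where its mean over all libraries was at least 10 counts. Of the 27754 genes counted, 83 had such a symbol and 78 were kept, of which 46 encode large subunit proteins and 32 encode small subunit proteins. Paralogues whose symbols fall outside this pattern (RPL22L1, RPL26L1, RPL7L1 and RPL36AL) were not counted among the 78 and are described beside their partners. The 5 left out were RPL10L, RPL3L, RPL21, RPS4Y1 and RPS4Y2. The highest of them was RPL10L, with a mean of 8.17 counts, and the lowest of those kept was RPS10, with a mean of 130 counts.

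The RNA came from T47D cells, an established human breast cancer cell line of luminal type, grown in RPMI medium with serum. Of 6 libraries, 3 were from cells in normoxia (20% O2) and 3 were from cells in hypoxia (0.5% O2 per the labels) for 48 h. The study's text states another oxygen level for this experiment, and no other agent or genotype separates the conditions. The study describes its data as independent experiments, whereas the labels give only replicate numbers, so each p-value measures the spread between these libraries.

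Ribosomal protein mRNAs are among the most abundant in growing cells, and their proteins are made in equal amounts for assembly with ribosomal RNA in the nucleolus. Many of these mRNAs begin with a 5′ terminal oligopyrimidine (TOP) tract, a C at the first base followed by a run of C and T (U in the RNA), through which the mTOR pathway controls their translation. TOP tracts act on translation and on mRNA stability, whereas RNA sequencing of total mRNA measures only the level of each transcript. In a bulk sample, a change in the share of cells with a transcript and a change in the RNA per cell cannot be told apart.

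Start sites were read to show which of these genes carry the tract. Windows of 25 bases before the annotated start and 15 bases from it came from RefSeq (GRCh38.p14) and were matched to the locus of the gene in GRCh37, the build of the counts. A tract was a C followed by at least 4 further C or T bases on the transcribed strand, beginning within 5 bases of the start. Of the 78 genes, 62 had a RefSeq start window, and 49 of these (79.0%) held a tract, against 21.1% of all 27305 RefSeq promoters. At the exact start, 41 of 62 (66.1%) held one, against 4.04% of all promoters. The median longest tract was 10 bases in the 62 genes and 3 bases in all promoters. Of the 62, RPS9 could not be placed in GRCh37, which left 61 genes with a matched window, and the other 16 of the 78 had no start sequence in the table used. The windows printed here belong to the genes with the largest changes and to paralogue pairs, with the tract in capitals and the annotated start at base 26. A match is a description of these letters and not proof of the start used in T47D cells.

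RPL12, chr9:130213671-130213710, minus strand: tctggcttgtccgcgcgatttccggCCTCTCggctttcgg
RPL10A, chr6:35436153-35436192, plus strand: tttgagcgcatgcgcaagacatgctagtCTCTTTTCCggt
RPL28, chr19:55897275-55897314, plus strand: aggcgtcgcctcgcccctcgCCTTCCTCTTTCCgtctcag
RPS18, chr6:33239827-33239866, plus strand: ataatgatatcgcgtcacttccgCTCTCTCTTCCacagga
RPS27, chr1:153963213-153963252, plus strand: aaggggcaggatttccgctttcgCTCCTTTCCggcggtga
RPS27L, chr15:63449662-63449701, minus strand: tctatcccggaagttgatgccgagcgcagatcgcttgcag
RPL26, chr17:8286497-8286536, minus strand: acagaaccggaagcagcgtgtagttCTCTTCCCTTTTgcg
RPL26L1, chr5:172385707-172385746, plus strand: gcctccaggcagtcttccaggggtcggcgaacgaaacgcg
RPL22, chr1:6259641-6259680, minus strand: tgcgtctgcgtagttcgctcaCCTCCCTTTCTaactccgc
RPL22L1, chr3:170587970-170588009, minus strand: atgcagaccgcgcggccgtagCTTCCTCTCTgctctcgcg
RPL7L1, chr6:42847329-42847368, plus strand: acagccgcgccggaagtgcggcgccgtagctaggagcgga
RPS26, chr12:56435677-56435716, plus strand: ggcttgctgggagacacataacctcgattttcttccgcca
RPS10, chr6:34393832-34393871, minus strand: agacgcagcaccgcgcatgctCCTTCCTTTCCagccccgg
RPL36A, chrX:100645974-100646013, plus strand: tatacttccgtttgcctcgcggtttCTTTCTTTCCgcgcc
RPL36AL, chr14:50087330-50087369, minus strand: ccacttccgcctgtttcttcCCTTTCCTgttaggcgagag

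RPS27, RPL26, RPL22 and RPL36A all held a tract, as did RPL22L1 and RPL36AL. RPS27L, RPL26L1 and RPL7L1 held none, and neither did RPS26.

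The libraries held 32989104 to 40943424 counts in normoxia and 34640756 to 89883409 in hypoxia. All 9 luminal markers listed for the check (keratins KRT8, KRT18 and KRT19, ESR1, PGR, GATA3, FOXA1, EPCAM and CDH1) had at least 10 counts in every library, and their summed level was 13670 to 17000 CPM of the total counts (without TMM factors, as for the other marker sums) in normoxia and 10760 to 13700 in hypoxia. Of 10 mesenchymal or basal markers, 4 to 8 had at least 10 counts in normoxia and 7 to 9 in hypoxia, with 2 to 3 and 1 to 2 of them at 0, and their summed level was 187 to 193 and 242 to 314 CPM. Fibroblast, leukocyte and endothelial markers summed to at most 101, 8.49 and 0.167 CPM. The part of these shifts in the results was not tested. VEGFA, a gene induced by low oxygen, had 34.2 to 46.5 CPM in normoxia (for single genes, scaled to library sizes with TMM factors) and 764 to 834 in hypoxia. Replicate 3 of both conditions stood apart. Counts of VIM, a mesenchymal marker, were 7 and 12 in the first normoxia libraries but 395 in replicate 3, and 35 and 35 in the first hypoxia libraries but 1001 in replicate 3. Here and below, 3 values for a condition stand in the order of the replicate numbers. Among the ribosomal protein genes, the difference in log2 CPM of replicate 3 from the mean of replicates 1 and 2 had an SD over the 78 genes of 0.33 in normoxia and 0.36 in hypoxia. The difference between replicates 1 and 2 had an SD of 0.075 and 0.055. The part of replicate 3 in each result was therefore measured by leaving it out, and same-numbered libraries were also compared as pairs, with the replicate number as a block.

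Together, the 78 genes took a larger share of the counts in hypoxia. Their share was 5.88%, 5.93% and 5.58% for the normoxia libraries. For the hypoxia libraries it was 7.38%, 7.66% and 6.76%. The means were 5.80% ± 0.19 and 7.27% ± 0.46 (SD, n = 3), and the conditions did not overlap. Large subunit genes made up 63.8% ± 0.61 of these counts in normoxia and 64.2% ± 0.54 in hypoxia (SD, n = 3), a difference smaller than the spread between libraries, although it was higher in hypoxia in all 3 same-numbered pairs (64.1% and 64.4%, 64.3% and 64.5%, 63.1% and 63.5%). A share moves with everything else in the library, so single genes were compared after TMM scaling.

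Gene by gene, most members were a little higher in hypoxia and 3 were clearly lower. All 78 passed the filter on low counts. Of these, 25 rose (32.1%) and 3 fell (3.85%) at an adjusted p under 0.05 (edgeR's quasi-likelihood test, Benjamini-Hochberg over 15657 genes), while 50 did not pass. Over all genes tested, 30.4% rose and 29.1% fell. In this fit, which held no replicate block, the share of ribosomal protein genes that rose was near the background and the share that fell was below it. The first reading depended on the block and on the libraries used, as given below. The log2-fold change was above 0 for 66 of the 78, with a median of 0.19 (a 1.14-fold level) beside a median of 0.028 over all genes. The middle of the distribution was narrow, with quartiles of 0.077 and 0.29, and the extremes were −1.29 (RPS10) and 0.69 (RPL12).

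**Figure D1:**
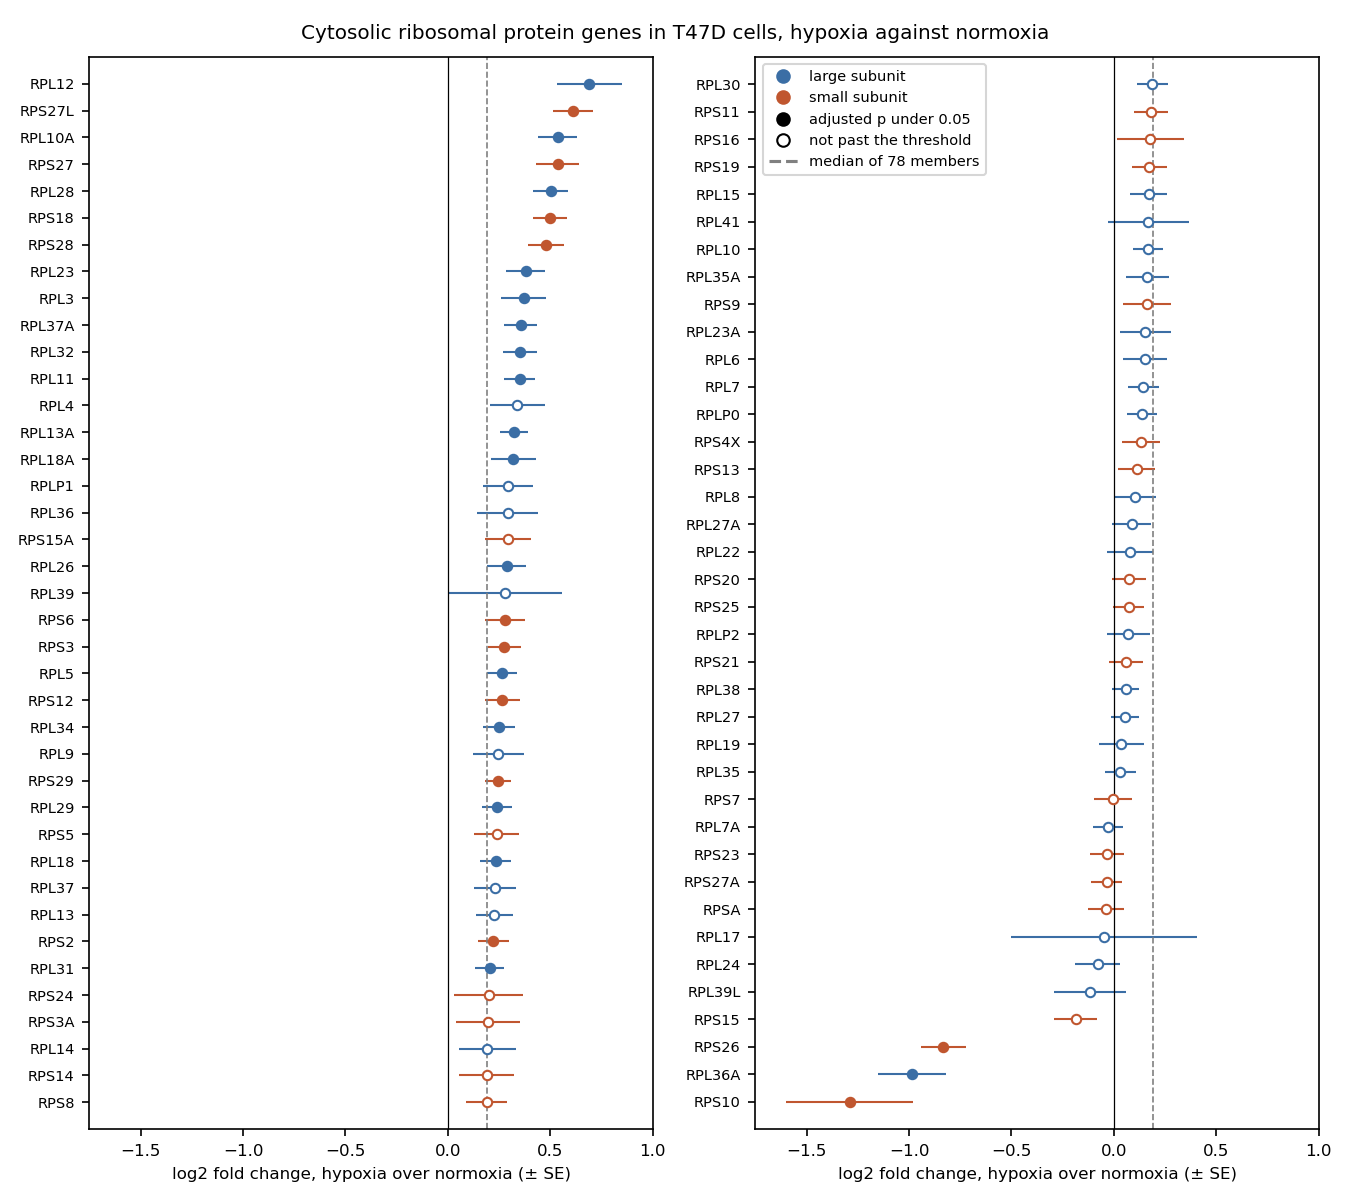
Log2-fold change of 77 of the 78 ribosomal protein genes in hypoxia over normoxia (x axis, point ± SE from edgeR), sorted from RPL12 to RPS10, with blue for large subunit and orange for small subunit genes and filled points for an adjusted p under 0.05. Most points lie between 0 and 0.5 around the dashed median of 0.19, and RPS26, RPL36A and RPS10 stand alone on the left.

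With the block, 53 genes rose (67.9%) and 4 fell, where 36.6% and 35.2% of all genes did. The genes' median SE was 0.094 without the block and 0.053 with it. Without replicate 3, 56 rose and 5 fell, beside 36.4% and 34.8% of all genes. Without replicate 1, however, 5 rose, beside 16.9% of all genes (13.9% fell), and without replicate 2, 8 rose, beside 22.5% of all genes (19.8% fell). The number of calls thus depended on which libraries were used, for these genes and for all genes. Scaling also mattered. With upper-quartile factors, 52 rose beside 38.1% of all genes (21.0% fell), and the median moved to 0.35 as that of all genes moved to 0.19. With an offset for gene length, 44 rose beside 30.0% of all genes (30.0% fell), with a median of 0.35. These genes are short (median exon length 915 bases, against 3184 bases over all genes tested). Other genes of at most 1000 bases had a median log2-fold change of −0.059, and the members of at most that length had one of 0.19.

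**Figure D2:**
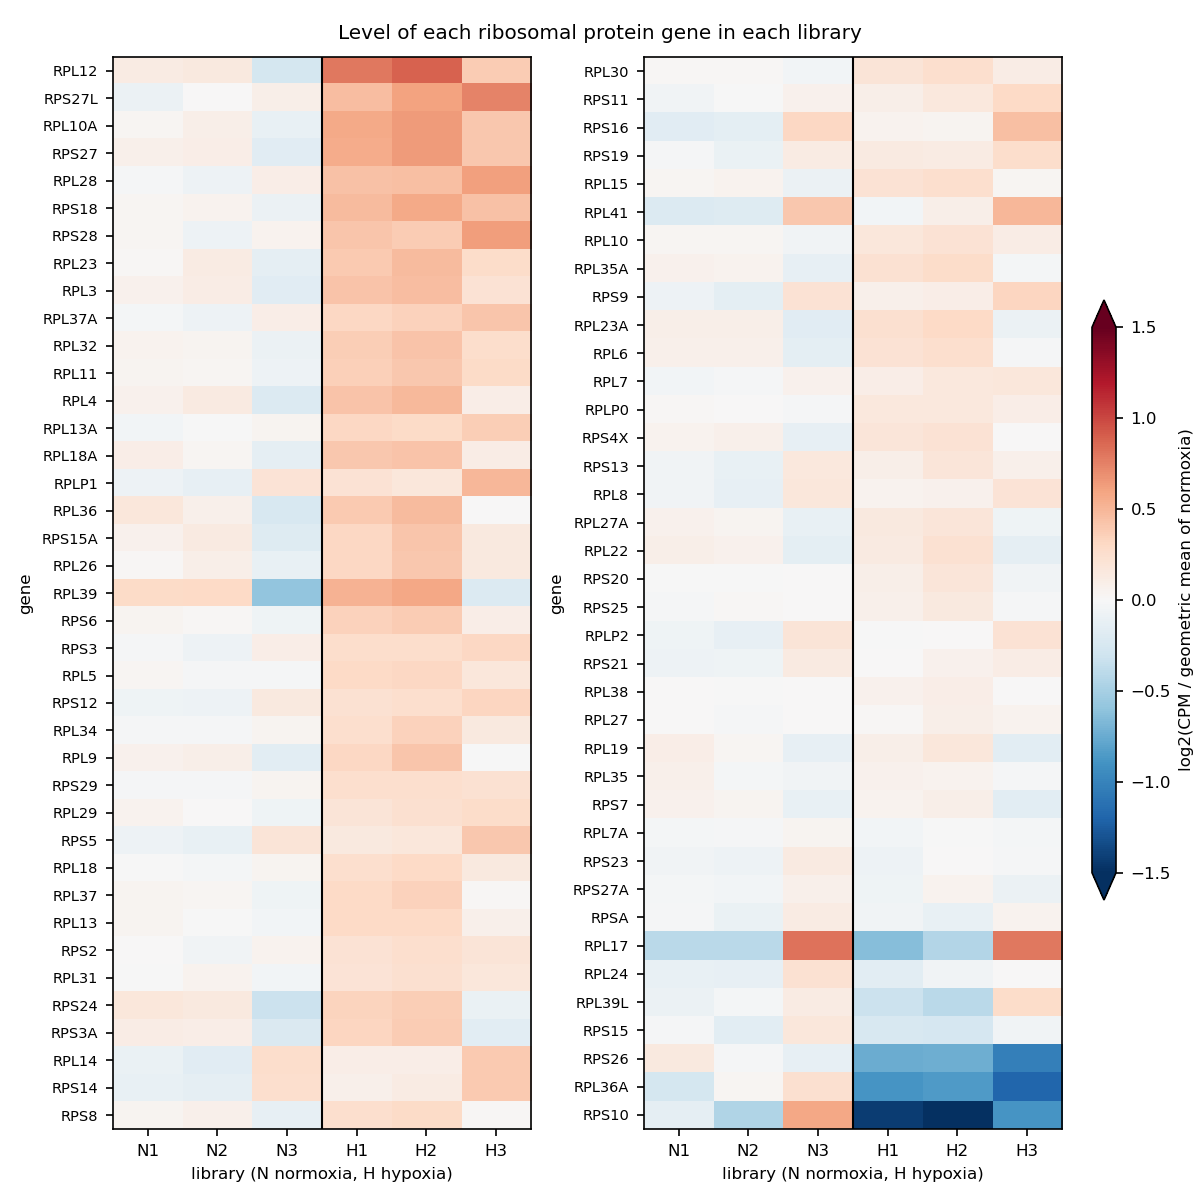
Level of the same 77 ribosomal protein genes (rows, in the order of the log2-fold change) in each of the 6 libraries (columns), as log2 of its CPM over the geometric mean of the 3 normoxia libraries. Hypoxia columns are mostly red in replicates 1 and 2, replicate 3 is paler for some genes (RPL12) and stronger for others (RPS27L, RPL28), the bottom rows RPS26, RPL36A and RPS10 are blue in all hypoxia libraries, and RPL17 and RPL39 differ strongly by replicate number.

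In 35 genes every hypoxia library lay above every normoxia library in CPM, which was also so for 34.9% of all genes. In 3 genes (RPS26, RPL36A and RPS10) every hypoxia library lay below, as for 32.4% of all genes. The subunits differed little in these counts. Of the large subunit genes, 16 of 46 rose and 1 fell, with a median of 0.20. Of the small subunit genes, 9 of 32 rose and 2 fell, with a median of 0.19. Both stand beside 30.4% of all genes that rose and 29.1% that fell. With the block, 33 large and 20 small subunit genes rose and 1 and 3 fell, beside 36.6% and 35.2% of all genes.

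RPL12, which with the acidic stalk proteins lines the site where translation factors bind, had the largest rise. Its level was 1208, 1228 and 921 CPM in normoxia and 1917, 2057 and 1447 CPM in hypoxia. All hypoxia libraries were above all normoxia libraries, and replicate 3 was lowest in both. The log2-fold change was 0.69 ± 0.16 (SE, edgeR adjusted p = 0.0070), and it was 0.71 without replicate 3. Without replicate 1 it was 0.71 and did not pass (adjusted p = 0.057).

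RPS27L and RPS27 encode near-identical zinc finger proteins of the small subunit, and both rose. RPS27L, a target of p53 in other cells, had 46.1, 49.0 and 51.8 CPM in normoxia and 67.3, 74.4 and 82.1 CPM in hypoxia (log2-fold change 0.61 ± 0.097, SE, edgeR adjusted p = 0.0012). RPS27 had 698, 709 and 588 CPM in normoxia and 979, 1033 and 881 CPM in hypoxia (0.54 ± 0.10, adjusted p = 0.0030). In both genes the conditions did not overlap, although the tract shown above was present at RPS27 and not at RPS27L.

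RPL10A, the protein of the mobile L1 stalk that guides tRNA out of the ribosome, had 656, 688 and 596 CPM in normoxia and 955, 1001 and 856 CPM in hypoxia. Its log2-fold change was 0.54 ± 0.093 (SE, edgeR adjusted p = 0.0019). RPL28, a large subunit protein without a bacterial counterpart, had 443, 428 and 481 CPM in normoxia and 613, 614 and 689.5 CPM in hypoxia (0.50 ± 0.085, adjusted p = 0.0016). Neither gene had overlapping conditions, and replicate 3 was the lowest library for RPL10A and the highest for RPL28 in both conditions.

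RPS18, in the head of the small subunit, had 1643, 1669.5 and 1503 CPM in normoxia and 2232, 2383 and 2183 CPM in hypoxia. The change was 0.50 ± 0.084 (SE, edgeR adjusted p = 0.0016), and without replicate 1 it was 0.53 with an adjusted p of 0.051. The counting annotation lists RPS18 under 6 chromosome names, chromosome 6 (33239852 to 33244281, plus strand) and alternative haplotypes. RPS28, beside the path of the mRNA out of the small subunit, went from 210.5 ± 9.51 to 293 ± 27.5 CPM (SD, n = 3, log2-fold change 0.48, edgeR adjusted p = 0.0024). RPL23, which lies at the interface of the subunits and can bind MDM2, the ubiquitin ligase of p53, went from 945 ± 83.0 to 1230 ± 84.3 CPM (SD, n = 3, 0.38, adjusted p = 0.010), and leaving out replicate 1 or 2 ended that call. The other 17 genes that rose had log2-fold changes from 0.20 to 0.37.

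**Figure D3:**
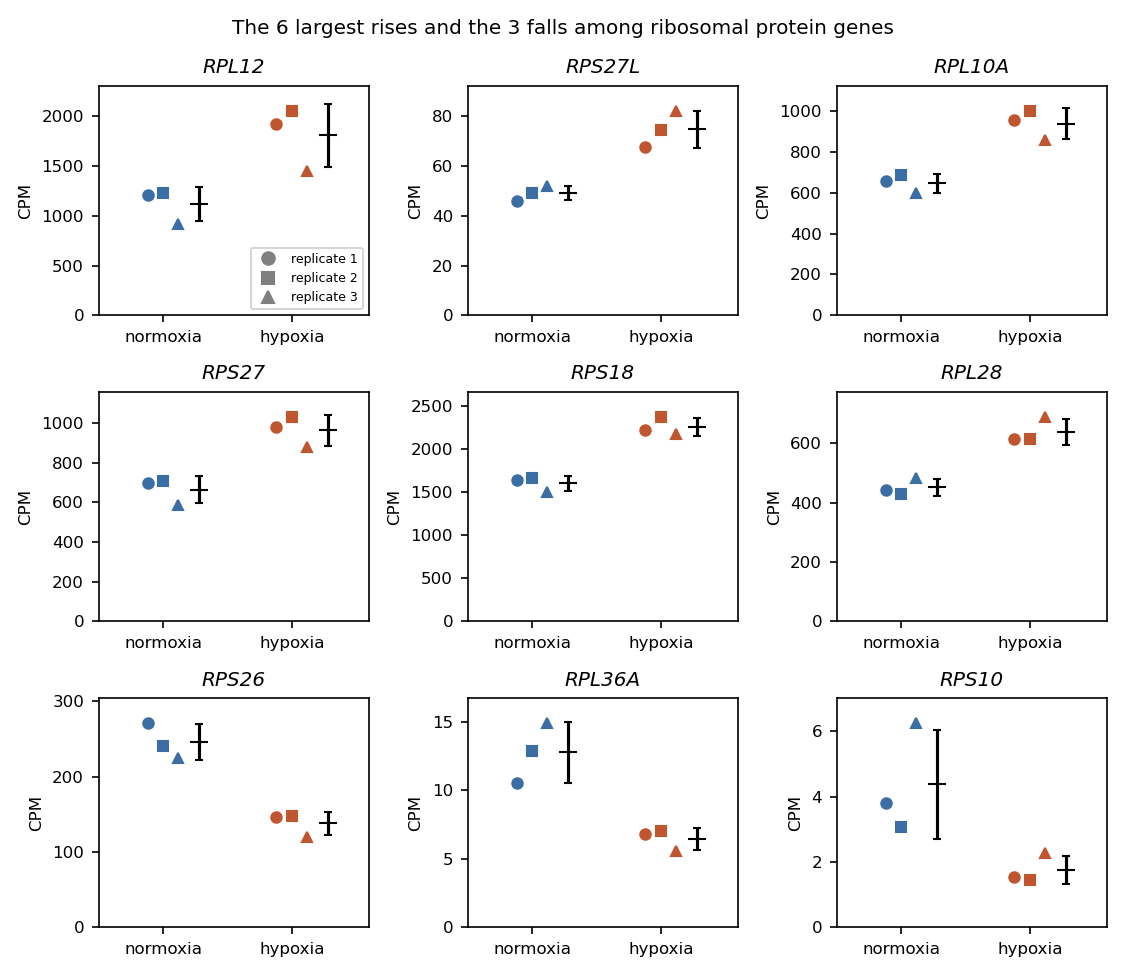
CPM (y axis, from 0) of the 6 genes with the largest rises and the 3 that fell, in each normoxia (blue) and hypoxia (orange) library, with symbols for the replicate number and the mean ± SD beside them. In all 9 panels the conditions do not overlap, and the axes differ in scale, with RPS10 at a few CPM and RPS18 at 1503 to 2383 CPM.

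RPS26, which lies where the mRNA leaves the ribosome and contacts bases ahead of the start codon, was the abundant exception. Its level was 272, 241 and 224 CPM in normoxia and 146, 147 and 120 CPM in hypoxia. Every hypoxia library was below every normoxia library. The log2-fold change was −0.83 ± 0.11 (SE, edgeR adjusted p = 5.5e-04), and it passed in each of 17 alternatives, from −0.90 to −0.64. Some of its sequence is not its own. Of the 50-base windows of its counted exons (chr12:56435686-56438007, plus strand), 54.9% occur elsewhere in GRCh37, where processed pseudogenes of ribosomal proteins are common. How the counting treated reads with several matches was not stated, and its part in this change was not tested.

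RPL36A, a large subunit protein next to the exit site of tRNA, had 10.5, 12.9 and 14.9 CPM in normoxia and 6.82, 7.03 and 5.55 CPM in hypoxia (log2-fold change −0.99 ± 0.17, SE, edgeR adjusted p = 0.0017). RPS10, a small subunit protein near the mRNA entry that is ubiquitinated when ribosomes collide, had 3.80, 3.06 and 6.27 CPM in normoxia and 1.56, 1.45 and 2.26 CPM in hypoxia (−1.29 ± 0.31, adjusted p = 0.0083). The conditions did not overlap in either gene, but RPS10 did not pass without replicate 1 (adjusted p = 0.058). Both levels are low for ribosomal protein genes, and both genes share exons with a read-through gene on the same strand. For RPS10 that gene is RPS10-NUDT3, which covers 62.5% of its exon bases, and for RPL36A it is RPL36A-HNRNPH2, which covers 15.6%. Reads in shared exons can be lost in counting by gene, so these values may describe the unshared parts of the exons, and this was not tested.

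Shared exons and repeated sequence touched other members too. In all, 15 of the 78 had exon bases in common with another gene, 8 on the same strand and 8 on the opposite strand, with RPS27A in both groups. The largest overlaps were RPS10 with RPS10-NUDT3, RPL17 with RPL17-C18orf32 (59.7%), RPL13A with the pseudogene RPL13AP5 (55.8%), RPL10 with DNASE1L1 on the opposite strand (42.7%) and RPL36A. RPL21 was listed at 0 in every library, and 99.3% of its exon bases lie in the pseudogene RPL21P28. The counts of such genes may not give the level of their mRNA. The median change was close at high and low repetition. The 21 genes with at least 50% of windows repeated had a median log2-fold change of 0.17, with 6 higher and 2 lower (RPS26 and RPS10). The 28 genes with under 10% repeated had one of 0.20, with 9 higher and 0 lower. Over all genes tested, 30.4% rose and 29.1% fell. Among the 8 largest rises, the repeated windows ranged from 1.6% (RPS27L) to 80.2% (RPS28), with RPS18 at 61.0% and RPL12 at 51.7%. RPL39, which did not pass, had 81.6%. The part of repeated sequence in these calls was not tested.

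By TPM, a transcript level that corrects for exon length within a library, the highest in normoxia were RPL7A (6717 ± 105, SD, n = 3), RPS2 (5395 ± 82.3), RPL35A (4675 ± 493), RPL7 (4452 ± 73) and RPLP0 (4405 ± 205). RPL7A and RPS2 were apart from each other and from the next by more than their spread, whereas RPL35A, RPL7 and RPLP0 were not. Many 50-base windows of RPL7 (99.6%), RPS2 (84.1%), RPL7A (68.3%) and RPLP0 (58.1%) occur elsewhere in GRCh37, against 1.1% for RPL35A. How reads with several matches were counted was not stated, so these levels and their order are uncertain. Low levels were found for RPL36A (10.7 ± 1.6), RPS10 (12 ± 4.14), RPL17 (35 ± 17.3) and RPS29 (75.7 ± 1.14). Of these, RPL36A, RPS10 and RPL17 are among the genes with shared or repeated exons, and RPS29 is given an exon length of 7517 bases, the longest of all members. The rise of RPS29, from 233 ± 5.40 to 276 ± 2.25 CPM (SD, n = 3, log2-fold change 0.25, edgeR adjusted p = 0.012), did not pass with the length offset (0.095, adjusted p = 0.32). In total, 59 of the 78 were above 1000 TPM, with a median of 1757 TPM.

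The most abundant genes did not change most. RPL7A, with 2403, 2421 and 2522 CPM in normoxia and 2374, 2437 and 2390 CPM in hypoxia, had a log2-fold change of −0.029 (edgeR adjusted p = 0.76). RPS2, near the mRNA entry, rose from 2082 ± 74.2 to 2427 ± 39.8 CPM (SD, n = 3, 0.22, adjusted p = 0.036), but kept its call in 9 of 17 alternatives. RPL7 (0.14, adjusted p = 0.14, 0.036 with the block) and RPL35A (0.16, 0.21, 0.027 with the block) did not pass in the main edgeR fit. That fit held all 6 libraries with TMM scaling alone and no block. Both genes passed without replicate 3, and both passed with upper-quartile factors (edgeR adjusted p = 0.0093 and 0.048). With the length offset RPL7 passed (0.010) and RPL35A did not (0.063).

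The stalk proteins recruit translation factors to the ribosome. None of them passed in the main edgeR fit (all 6 libraries, TMM scaling alone, no block). RPLP0, the base of the stalk and a TOP mRNA often used as a reference gene, had 2306, 2282 and 2249 CPM in normoxia and 2536, 2552 and 2432 CPM in hypoxia. Its hypoxia libraries were all above its normoxia libraries, and the log2-fold change was 0.14 ± 0.075 (SE, edgeR adjusted p = 0.15, 0.044 with the block). RPLP1 had 773, 749.6 and 938 CPM in normoxia and 948, 917 and 1151 CPM in hypoxia (0.29 ± 0.12, adjusted p = 0.071, 9.9e-04 with the block). Without replicate 3, RPLP0 and RPLP1 passed (adjusted p = 0.029 and 3.2e-04). Scaling mattered too. With upper-quartile factors RPLP0 and RPLP1 passed (edgeR adjusted p = 0.016 and 0.0075). With the length offset RPLP0, RPLP1 and RPLP2 passed (0.036, 0.0017 and 0.014). RPLP2 had 378 ± 44.6 and 397 ± 34.1 CPM (SD, n = 3, 0.071, adjusted p = 0.58), with overlapping conditions.

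RPL5 and RPL11, which with 5S ribosomal RNA can bind and inhibit MDM2, both rose. RPL5 had 766, 744 and 746 CPM in normoxia and 929, 934 and 849 CPM in hypoxia (log2-fold change 0.26, edgeR adjusted p = 0.017), and it kept this call in 11 of 17 alternatives. RPL11 had 771, 763 and 710 CPM in normoxia and 959, 990 and 913 CPM in hypoxia (0.35, adjusted p = 0.0053), and 15 of 17 alternatives kept it. RPS6, the small subunit protein phosphorylated by S6 kinase below mTOR, had 1142, 1129 and 1064 CPM in normoxia and 1410, 1452 and 1186 CPM in hypoxia (0.28, adjusted p = 0.037, kept in 10 of 17). RPSA, also known as a laminin receptor, had overlapping levels of 1327 ± 102 and 1293 ± 72.8 CPM (SD, n = 3, −0.038, adjusted p = 0.73). None of the values of RPS6 bears on its phosphorylation, which was not measured here.

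To ask which genes moved apart from the group, each library was scaled to the summed counts of the 78 genes, so that the scaling between conditions cannot enter. RPL12, RPS27L, RPL10A, RPS27, RPL28 and RPS18 were then higher, by 0.48, 0.40, 0.32, 0.32, 0.30 and 0.29 on the log2 scale (edgeR adjusted p from 0.011 to 0.040). RPS10, RPL36A, RPS26, RPS15, RPS27A and RPL7A were lower, by −1.49, −1.20, −1.04, −0.39, −0.25 and −0.24 (adjusted p from 2.0e-04 to 0.037). On this scale 21.9% of all genes were higher and 39.4% lower. With the block, 11 were higher and 18 lower (25.9% and 45.9% of all genes), and without replicate 3 the numbers were 8 and 16 (25.3% and 47.2%). Leaving out replicate 1 left 0 higher (edgeR, 1 at an unadjusted p under 0.05) and 2 lower, and leaving out replicate 2 left 0 higher (4 at an unadjusted p under 0.05) and 3 lower. Over all genes these fits called 11.6% higher and 20.2% lower without replicate 1 and 16.7% higher and 27.8% lower without replicate 2. The calls against the group thus fell without replicate 1 or 2 and grew without replicate 3.

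RPS15, next to the decoding site, and RPS27A, which is made as a fusion with ubiquitin, were picked here after their values were seen, to show the size of these smaller differences. RPS15 had 322, 293 and 368 CPM in normoxia and 275, 275 and 313 CPM in hypoxia, with overlapping conditions (log2-fold change −0.19, edgeR adjusted p = 0.15, 0.016 with the block). RPS27A had 397, 392 and 426 CPM in normoxia and 386, 421 and 379 CPM in hypoxia. Its change was −0.035 under TMM scaling and −0.25 against the summed members.

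Several ribosomal proteins have a second gene, which in some tissues replaces the first. Of 9 such pairs, 6 had both genes at a mean of at least 10 counts. RPL3L, the striated muscle form of RPL3, had 0, 0 and 1 counts in normoxia and 2, 1 and 7 counts in hypoxia, while RPL3 had 1498 ± 154 and 1936 ± 175 CPM (SD, n = 3). RPL10L, the testis form of RPL10, had 10, 11 and 8 counts in normoxia and 8, 4 and 8 counts in hypoxia. In both pairs the second gene was at the edge of detection. The coding sequences of the 6 measured pairs were 56.4% (RPL7 and RPL7L1) to 94.8% (RPL39 and RPL39L) identical, and they had 0 stretches of 50 bases in common except for 11 between RPL36A and RPL36AL.

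RPL26L1 fell against RPL26. As a ratio of counts, RPL26L1 was 5.59%, 5.26% and 6.09% of RPL26 in normoxia and 3.08%, 2.83% and 3.19% in hypoxia, so all hypoxia values were lower. The mean log2 ratio went from −4.15 ± 0.11 to −5.04 ± 0.090 (SD, n = 3), a difference of −0.90. An exact permutation test gave the smallest p that 3 against 3 libraries allow, 0.10 (two-sided, 0.20 adjusted over the 6 pairs). RPL26L1 itself went from 42.4 ± 0.43 to 27.8 ± 1.15 CPM (log2-fold change −0.61, edgeR adjusted p = 4.3e-04), while RPL26 rose by 0.29 (adjusted p = 0.030).

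RPL7L1, which works in ribosome assembly, fell in the same way. It was 15.9%, 14.4% and 15.5% of RPL7 in normoxia and 10.1%, 9.27% and 9.26% in hypoxia (difference in log2 ratio −0.68, exact permutation p = 0.10, two-sided, adjusted 0.20). Its own level was 235, 217 and 247 CPM in normoxia and 165, 158 and 159 CPM in hypoxia (log2-fold change −0.54, edgeR adjusted p = 7.4e-04). Nearly all windows of RPL7 (99.6%) are repeated elsewhere in the genome, so the level of RPL7 is uncertain.

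RPL36AL had far more counts than RPL36A, and their ratio rose. The log2 ratio was 4.07, 3.69 and 3.80 in normoxia and 4.41, 4.37 and 4.89 in hypoxia (difference 0.70, exact permutation p = 0.10, two-sided, adjusted 0.20). RPL36AL itself had 176, 167 and 208 CPM in normoxia and 145, 145 and 165 CPM in hypoxia, and its log2-fold change of −0.27 passed narrowly (edgeR adjusted p = 0.049, 0.0022 with the block, kept in 8 of 17 alternatives). The ratio therefore moved with the fall of RPL36A, whose counts carry the limit of its read-through partner.

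In the other pairs the shift of the ratio was within the spread between libraries of a condition. RPL22L1 was 21.6%, 22.4% and 20.7% of RPL22 in normoxia and 22.7%, 20.8% and 20.1% in hypoxia (difference in log2 ratio −0.022, exact permutation p = 0.80, two-sided). RPS27L was 6.60%, 6.91% and 8.80% of RPS27 in normoxia and 6.88%, 7.21% and 9.32% in hypoxia (0.068, p = 0.60, exact permutation). Between same-numbered libraries its log2 ratio rose by 0.061, 0.060 and 0.084, less than either gene rose. RPL39L was 15.4%, 15.8% and 32.7% of RPL39 in normoxia and 11.1%, 10.1% and 27.8% in hypoxia (−0.45, exact permutation p = 0.50). That difference was −0.093 without normoxia replicate 3, −0.18 without hypoxia replicate 2, −0.25 without hypoxia replicate 1 and −0.91 without hypoxia replicate 3. In that pair the difference between replicate 3 and the other replicates was larger than that between conditions, while each same-numbered hypoxia library was below its normoxia partner. RPL39L, a testis form of RPL39 that is also found in tumor cells, fell by 0.30 on the log2 scale without replicate 3 (edgeR adjusted p = 0.0034) and did not pass with it (−0.12, adjusted p = 0.59). RPL39 had 217, 218 and 118 CPM in normoxia and 255, 264 and 154 CPM in hypoxia (0.28, adjusted p = 0.40, 0.0014 with the block).

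**Figure D4:**
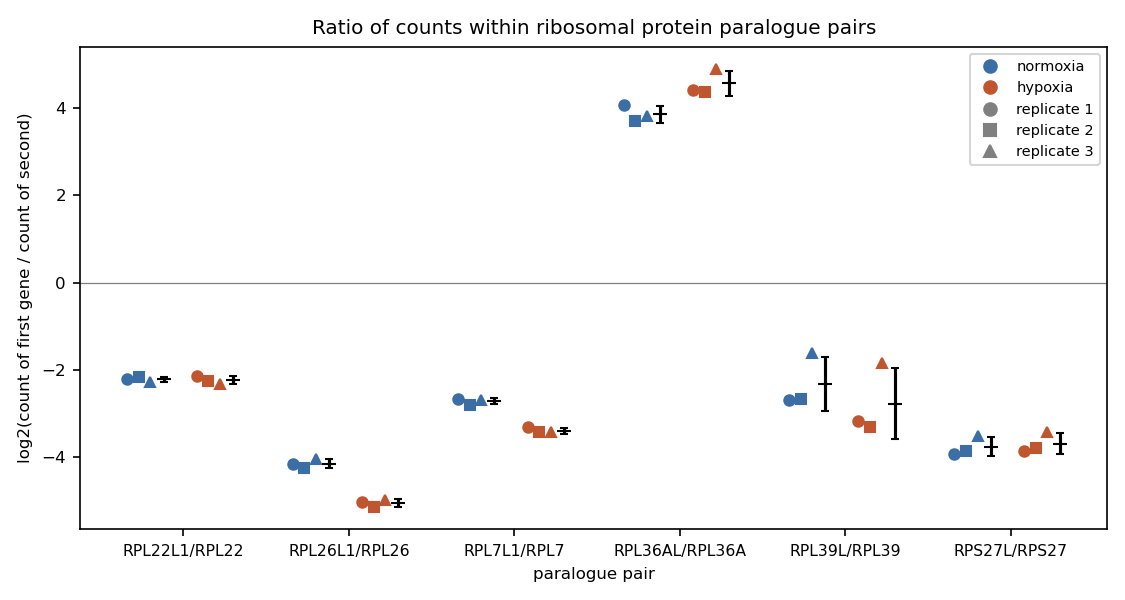
Log2 ratio of the counts of each paralogue to its partner (y axis) in the normoxia (blue) and hypoxia (orange) libraries of 6 pairs, with symbols for the replicate number and the mean ± SD beside them. The conditions do not overlap for RPL26L1/RPL26, RPL7L1/RPL7 and RPL36AL/RPL36A, and replicate 3 stands apart for RPL39L/RPL39 and RPS27L/RPS27.

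The replicate 3 libraries differed strongly from the others in RPL17 and RPL39, genes picked here for that difference. RPL17 had 11.7, 11.7 and 27.3 CPM in normoxia and 9.96, 11.5 and 26.8 CPM in hypoxia. RPL39 went the other way, being lowest in replicate 3 of both conditions. The log2-fold change of RPL17 between conditions was −0.049 (edgeR adjusted p = 0.93).

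Genes with and without a tract at the start were set side by side, with no test of the difference. The 48 genes with a tract and a matched start window had a median log2-fold change of 0.20, with 19 higher and 2 lower. The 13 without a tract had a median of 0.15, with 2 higher and 1 lower (RPS27L and RPS29 rose, and RPS26 fell), where 30.4% of all genes rose and 29.1% fell. The other 17 genes had no matched start window.

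RACK1 and FAU are ribosomal proteins with other symbols. RACK1, a scaffold on the small subunit, had 1399 ± 48.5 and 1608 ± 128 CPM (SD, n = 3, log2-fold change 0.20, edgeR adjusted p = 0.080, 0.012 with the block). FAU, a ubiquitin-like protein fused to a small subunit protein, had 318 ± 50.7 and 281 ± 35.6 CPM (−0.18, adjusted p = 0.29, 0.016 with the block). Both passed with the block and without replicate 3, and neither passed in the main edgeR fit (all 6 libraries, TMM scaling alone, no block). RACK1 also passed with upper-quartile factors and with the length offset (edgeR adjusted p = 0.015 and 0.034). FAU was near 0 (0.021) with the length offset.

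Other translation genes, a list of 21 chosen as TOP mRNAs although their start sites were not read here, were mixed. Of these, 8 rose (EEF1A1, EEF2, EIF2S3, EIF3H, EIF4B, PABPC1, TPT1 and NAP1L1), 3 fell (EIF3K, EIF3G and BTF3) and 10 did not pass, with a median of 0.12. These are 38.1% and 14.3% of the list, beside 30.4% and 29.1% of all genes. EEF2, which moves the ribosome along the mRNA, rose from 3299 ± 224 to 4535 ± 229 CPM (SD, n = 3, log2-fold change 0.46, edgeR adjusted p = 0.0035). EIF3K and EIF3G, subunits of the initiation factor eIF3, went from 169 ± 13.5 to 100 ± 5.21 CPM (−0.75, adjusted p = 2.9e-04) and from 131 ± 9.91 to 95.1 ± 2.58 CPM (−0.46, adjusted p = 0.0018).

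By contrast, all 9 genes of a list of chaperones and escorts that carry newly made ribosomal proteins to the ribosome fell, with a median of −0.56 and a range of −1.07 to −0.38. LTV1, an assembly factor of the small subunit, went from 50.7 ± 10.8 to 26.1 ± 0.58 CPM (SD, n = 3, log2-fold change −0.95, edgeR adjusted p = 0.0010). GRWD1, which binds RPL3, went from 60.5 ± 15.5 to 28.8 ± 4.39 CPM (−1.07, adjusted p = 0.0021), and HEATR3, which brings RPL5 into the nucleus, from 20.2 ± 2.00 to 12.5 ± 1.45 CPM (−0.69, adjusted p = 0.0024). TSR2, which delivers RPS26 and was picked here after its values were seen, went from 76.4 ± 8.20 to 55.7 ± 4.09 CPM (−0.45, adjusted p = 0.0060). The proteins of the mitochondrial ribosome, made in the cytosol for another ribosome, also fell. Of 79 tested, 73 were lower (92.4%) and 1 higher, with a median of −0.60, against 29.1% of all genes lower. With upper-quartile factors the medians of the chaperones and of the mitochondrial proteins were −0.40 and −0.44, so their sign stayed opposite to that of the cytosolic ribosomal protein genes.

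**Figure D5:**
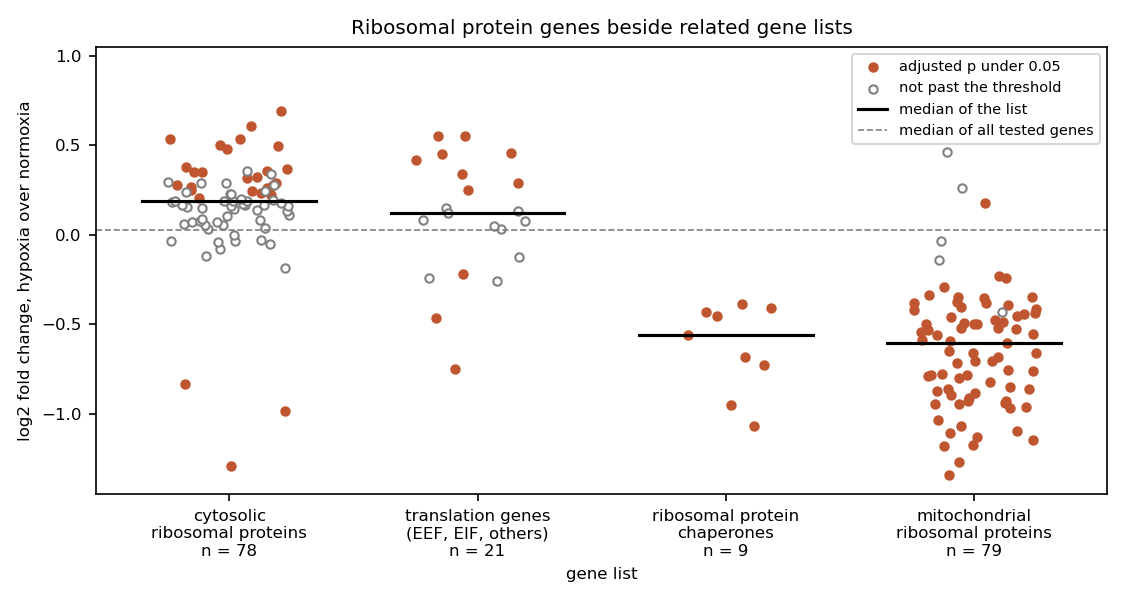
Log2-fold change in hypoxia over normoxia (y axis) of each gene in 4 lists, with filled points for an adjusted p under 0.05 (edgeR), a black line at the list's median and a dashed line at the median of all tested genes. The medians are 0.19 for cytosolic ribosomal proteins, 0.12 for translation genes, −0.56 for chaperones and −0.60 for mitochondrial ribosomal proteins.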

How the data were processed

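Total mRNA of T47D cells was sequenced from stranded mRNA libraries, with 3 libraries each of normoxia and hypoxia. After adapter trimming (Skewer) and alignment to GRCh37 (STAR), the authors counted reads per RefSeq gene with featureCounts, and the deposited values are these raw counts without normalization. The submitters' processing notes name FastQC 0.11.5, STAR 2.5.2a and featureCounts 1.5.1. The strand setting and the handling of reads with several matches are not given in the sources used here.

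Genes passing edgeR's filterByExpr (minimum count 10, minimum total 15) were tested with edgeR 4.0.16 (R 4.3.3), with TMM scaling, a quasi-likelihood fit with condition as the only term on all 6 libraries, and Benjamini-Hochberg adjustment at 0.05. Alternatives included DESeq2 1.42.0 and the exact test of edgeR that the study itself used. CPM values of single genes carry TMM factors and marker sums do not, and TPM was computed from counts and the exon lengths in the files. Paralogue ratios were compared by exact two-sided permutation. Exons and repeated 50-base windows were read from GRCh37, and start windows from RefSeq. Start windows were placed for 61 of the 78 genes.

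The numbers were taken to pair the libraries, since the study describes paired samples. Same-numbered libraries also deviated together from their condition means. Correlations of these deviations were 0.34, 0.42 and 0.58 for numbers 1, 2 and 3 over all 15657 genes and 0.84, 0.90 and 0.92 over the 78 genes. Libraries with different numbers were not compared. Replicate 3 stood apart in both conditions and enters each condition mean, so the values for numbers 1 and 2 cannot show that these libraries are pairs. The common biological coefficient of variation was 0.141 without the block and 0.0751 with it.

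Members and lists were chosen with earlier results of these data known. Genes named are the 8 largest changes each way among calls with a mean of at least 100 counts, measured paralogues, RPLP0, RPLP1, RPLP2, RPSA, RPS6, RPL5 and RPL11, the 5 highest and 5 lowest by TPM, up to 5 with shared exons, FAU and RACK1, and 3 from each other list by adjusted p. Some genes that this rule names are not reported here. The calculations were tested on simulated counts. Alternatives covered the test, scaling, filter, block, gene length, thresholds and each library or number left out.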

Additional observations from a re-analysis of the deposited data

How the results depend on the processing

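Of 25 members higher, alternatives gave 52 (upper-quartile factors), 42 (no normalization factors), 53 (replicate block), 44 (gene length offset), 11 (adjusted p of 0.01) and 5 to 56 (libraries or replicate numbers left out). With no factors, 5614 of 15657 genes tested were higher and 3596 lower. Shares of all genes for the other scalings, the block and replicate numbers left out stand above. With single libraries left out, 12 members (without hypoxia replicate 1) to 37 (without hypoxia replicate 3) were higher. Over all genes, the first of these fits called 3910 of 15808 higher and 3561 lower. The second called 4991 of 15835 higher and 4924 lower. No share of all genes is given for an adjusted p of 0.01, or for single libraries left out against the summed members. The 3 lower became 2 to 5 on leaving libraries out and 1 (RPS26) without 6 members with uncertain counts (among them RPL13A, RPL17, RPL36A, RPL7 and RPS10), an alternative chosen after seeing the data. The median of 0.19 became 0.35, 0.31 and 0.35 with upper-quartile factors, no factors and the length offset, and 0.16 to 0.22 with libraries left out. The share rose by 1.47 percentage points, or by 1.28 to 1.72 with libraries left out. Against the summed members, 6 higher became 11 with the replicate block, 0 at an adjusted p of 0.01 and 0 to 8 with libraries left out. There, 6 lower became 11 with DESeq2, 18 with the block, 3 at 0.01 and 2 to 16 with libraries left out. With DESeq2 on that scale, 6428 of 15657 genes were lower. Other alternatives kept these counts within 1.5 times, and the block reversed no named gene. The cause of these differences was not tested.

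Some values near 0 reversed. With upper-quartile factors, no factors and the length offset, RPL17 was 0.11, 0.065 and 0.087, RPL7A 0.13, 0.088 and 0.15, and RPSA 0.12, 0.078 and 0.11. RPL39L was 0.038 and 0.053 (upper-quartile, length offset) and FAU 0.021 (length offset). With libraries left out, log2-fold changes spanned −0.65 to 0.47 for RPL17, −0.041 to 0.19 for RPL22L1, −0.37 to 0.0039 for RPL39L, −0.0083 to 0.17 for RPLP2, −0.10 to 0.017 for RPSA and −0.054 to 0.0013 for RPL7A. The ratio RPL22L1/RPL22 spanned −0.072 to 0.018 and RPS27L/RPS27 −0.067 to 0.20. Of these genes, RPL39L, RPLP2 and FAU passed in some settings. Depth limits RPS10, with a mean of 130 counts, while 74 of 78 genes had a mean of at least 1000.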
